A study of Mus musculus with 24 samples.

Results

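Chromatin accessibility was followed at the loci of 5 surface markers of hair follicle stem cells (HFSCs), Cd34, Lgr5, Lgr6, Lrig1 and Plet1. A peak belonged to a marker when it overlapped the body of the gene or the 50 kb on either side of it, with gene borders from GENCODE for GRCm38. By that rule 633 of the 708357 peaks in the 12 peak lists lay in the 5 windows. Peaks that overlapped were joined into regions, of which 114 of 134385 lay in the windows when all 12 lists were joined, 91 of 98240 in the in vivo lists and 78 of 97078 in the culture lists. The 114 regions were spread as 9 at Cd34, 17 at Lgr5, 36 at Lgr6, 30 at Lrig1 and 22 at Plet1, and 57 of them lay inside the marker gene itself. The others were in the flanks. The windows of Lgr5, Lgr6, Lrig1 and Plet1 also overlap 2, 4, 1 and 3 other protein-coding genes, in that order, and the window of Cd34 overlaps 0.

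The study used ATAC-seq, in which the Tn5 transposase cuts and tags open chromatin, to follow epidermal stem cells (EpdSCs) in which SOX9, a transcription factor of HFSCs that EpdSCs lack, was switched on by doxycycline (DOX). All samples were of CD1 strain and male and carried K14rtTA, which places the DOX-dependent activator under a keratin promoter of basal epithelial cells. In vivo cells also carried TRE-myc-Sox9, D0 cells included, and came from back skin before DOX at P21 (D0) and after DOX at P28 (W1), P35 (W2) and P63 (W6), while the W12 cells came from grafted skin. According to the methods, neonatal skin had been grafted onto immunocompromised mice for W12, so time and graft cannot be told apart there. In vivo cells were sorted as CD31, CD45, CD117 and CD140a negative, CD49f high, CD34 negative and Ly6A high, so that cells bearing the protein of 1 of the 5 markers were removed at every time point. The 7 culture groups were keratinocytes without DOX (noDOX, genotype TRE-myc-Sox9) and with 1 µg/ml DOX, bearing TRE-myc-Sox9 (WT-SOX9), TRE-myc-Sox9noHMG (ΔHMG-SOX9, without the DNA-binding HMG domain), TRE-myc-Sox9noTA (ΔTA-SOX9, without the transactivation domain), TRE-FLAG-AFOS (AFOS, a dominant-negative FOS), TRE-myc-Sox9 with TRE-FLAG-AFOS (SOX9+AFOS) or TRE-myc-Sox9 with TRE-ARID1a (SOX9+ARID1a, with a SWI/SNF subunit). The labels give day 3 of DOX for 1 replicate each of WT-SOX9, ΔHMG-SOX9 and ΔTA-SOX9 and no day for the other samples with DOX in culture. The methods describe lentiviral delivery for the WT, ΔHMG and ΔTA versions of SOX9 and for AFOS and ARID1a. Each group had 2 replicates, each from 2 to 4 mice in vivo, but the authors merged them before peaks were called. Hence each group had 1 list, no value below has a spread between replicates, and no test was possible.

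The 5 markers sit in different compartments of the follicle and do different work at the cell surface. LGR5 and LGR6 are seven-pass receptors that bind R-spondins and raise the response to WNT, LGR5 in the lower bulge and hair germ and LGR6 in the isthmus, the sebaceous gland and some cells of the interfollicular epidermis. LRIG1 is a transmembrane protein that lowers signalling by receptors of the EGF family and marks the junctional zone above the bulge, PLET1 is a glycoprotein held at the membrane of cells in the same upper region, and CD34 is a sialomucin of the mouse bulge.

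The sequences of 6 regions that appeared at W2 and were still open at W6 and W12 are shown first, because none of the 14 regions of that kind lay over the start of a marker. Each is the central 200 bp of a region, on the plus strand of GRCm38, with capitals for letters that match a searched motif. The Cd34 element (chr1:194895317-194895516) was the strongest gain at W2, and the first Lgr6 element (chr1:135058122-135058321) was a gain at which WT-SOX9 also opened chromatin in culture. The other elements came from Lgr6 (chr1:135039306-135039505), Lgr5 (chr10:115469105-115469304) and Plet1 (chr9:50520803-50521002), which carry other motif letters, and from Lrig1 (chr6:94628232-94628431), a strong gain without any.
Cd34 upstream element: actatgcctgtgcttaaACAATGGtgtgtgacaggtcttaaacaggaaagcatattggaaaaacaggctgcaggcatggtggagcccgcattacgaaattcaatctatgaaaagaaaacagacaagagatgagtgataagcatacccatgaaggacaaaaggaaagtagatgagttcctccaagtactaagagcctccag
Lgr6 intron element with SOX and RUNX letters: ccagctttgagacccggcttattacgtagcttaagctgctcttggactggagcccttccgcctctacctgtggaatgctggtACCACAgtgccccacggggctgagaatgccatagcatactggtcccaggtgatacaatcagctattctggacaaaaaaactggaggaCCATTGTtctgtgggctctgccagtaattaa
Lgr6 intron element with TCF/LEF letters: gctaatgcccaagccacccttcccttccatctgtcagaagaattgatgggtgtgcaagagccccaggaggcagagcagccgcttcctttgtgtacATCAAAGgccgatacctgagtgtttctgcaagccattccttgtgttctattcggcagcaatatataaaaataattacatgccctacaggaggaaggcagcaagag
Lgr5 intron element: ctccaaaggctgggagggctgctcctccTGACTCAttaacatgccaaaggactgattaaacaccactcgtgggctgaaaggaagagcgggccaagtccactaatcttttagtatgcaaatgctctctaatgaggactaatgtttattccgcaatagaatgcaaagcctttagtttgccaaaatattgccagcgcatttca
Plet1 downstream element: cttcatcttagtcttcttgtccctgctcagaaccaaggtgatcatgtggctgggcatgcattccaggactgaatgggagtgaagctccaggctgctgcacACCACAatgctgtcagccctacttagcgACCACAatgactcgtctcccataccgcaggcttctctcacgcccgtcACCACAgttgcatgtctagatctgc
Lrig1 intron and exon element: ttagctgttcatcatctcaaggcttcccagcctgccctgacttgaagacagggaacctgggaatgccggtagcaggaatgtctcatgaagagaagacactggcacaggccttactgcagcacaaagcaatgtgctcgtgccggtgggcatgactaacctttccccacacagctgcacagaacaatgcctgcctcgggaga

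The letters searched for SOX were ACAATGG, with ACAATAG as the other form allowed. For AP1 they were TGACTCA, for the GATA factors AGATAA, for RUNX they were TGTGGT and for TCF/LEF they were ATCAAAG. Both strands were read, so the capitals may show the reverse complement, no motif contains another, and a match describes the sequence without showing a bound site. Within the central 200 bp, SOX letters occurred in 3 of the 114 marker regions (2.63%, against 6.07% of all regions) and AP1 letters in 14 (12.3%, against 19.4%). GATA letters occurred in 13 (11.4%, against 10.7%), RUNX letters in 18 (15.8%, against 16.5%) and TCF/LEF letters in 6 (5.26%, against 2.99%). Among the 13 regions gained by W2 and kept when all lists were joined, 2 had SOX letters (11.6% of all 7646 such regions had them), 4 had RUNX letters (18.9%), 1 had AP1 letters (23.9%), 1 had TCF/LEF letters (3.17%) and 0 had GATA letters (8.82%). Over their full length, SOX letters occurred in 4 of the 13 (26.1% of all such regions), RUNX letters in 7 (46.4%) and GATA letters in 3 (28.5%), with AP1 letters in 2 (42.1%) and TCF/LEF letters in 1 (11.1%). Because the centre was that of the joined region, it could miss the in vivo gain. At Plet1, 1 of the 4 RUNX matches came from chr9:50508413-50508612, outside the in vivo gain at chr9:50507312-50507909. Over the full length of the regions the SOX share was 14.9% at the markers and 15.3% overall. RefSeq promoters of GRCm38.p6, from 250 bp before to 50 bp after the start, matched 4 of the 5 markers, and none of the 4 held any of the searched letters. Across the 32851 promoters of that table, the letters occurred in 5.95% for SOX, 5.2% for AP1, 11.2% for GATA, 16.8% for RUNX and 3.73% for TCF/LEF. The promoters differed in base composition, with 35 CpG at Lrig1 and 24 at Lgr6 but 7 at Cd34 and 5 at Plet1, where the median promoter had 7.

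The lists held 49458 to 75956 peaks, each with the authors' normalized score, which starts at 3 and sums to 925672 to 996710 per list. Read depth is unknown. Over exon 2 of Sox9, which the transgene shares with the gene, a peak was listed in the 5 culture lists with a SOX9 construct and DOX (4.14 to 101) and in neither noDOX nor AFOS. In vivo, exon 2 had a peak at W12 alone (5.26). Over exon 3, the in vivo lists had a peak (8.84 to 15.1) except the one labelled W1, noDOX had one of 3.71, and ΔTA-SOX9 and AFOS had none, so the exons gave no uniform check of the labels. Class counts are also given without the list labelled W1. Evidence for the weakest peaks was not equal between lists, since the D0 list kept no peak with a −log10 q under 14.5, while the limits were 4.21 in the W2 list, 5.74 in the W6 list, 9.37 in the list labelled W1 and 10.1 in the W12 list, so that absence at D0 and presence at W2 were judged on different scales. The basal epithelial markers Krt5, Krt14, Cdh1, Epcam and Trp63 had a start-site peak in all 12 lists, 5 of 5. None of 3 endothelial and none of 3 immune markers had one in any list, while 1 of 4 melanocyte markers (Pmel) had one in 12 lists and 1 of 3 fibroblast markers (Pdgfra) in 10. Among genes of the sort, Itga6 (CD49f) had a start-site peak in 12 lists and Ly6a in none. Of the genes gated negative, Pdgfra (CD140a) had one in 10 lists, and Pecam1, Ptprc and Kit had none in any list.

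**Figure D1:**
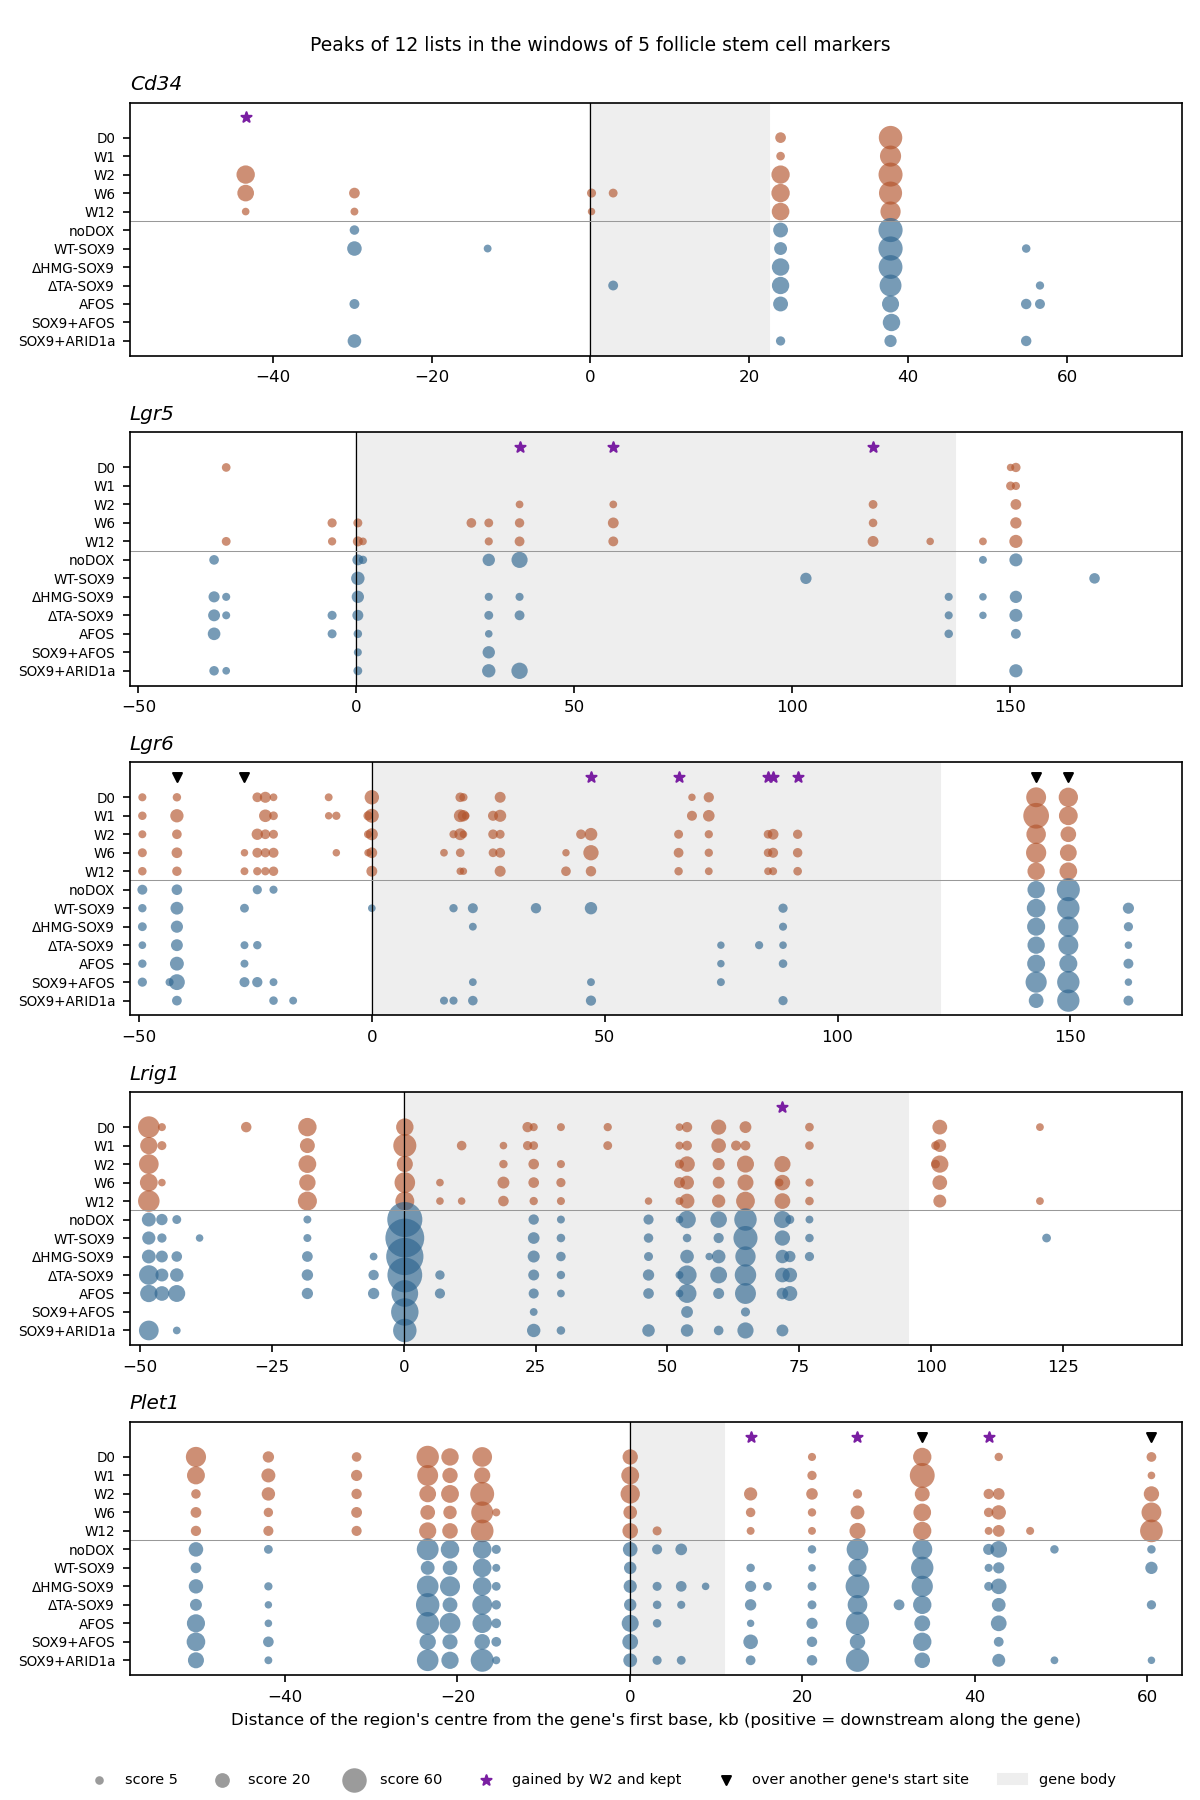
Regions in the 5 windows by distance of their centre from the first base of the gene (kb, x axis) and by list (rows, in vivo in brown and culture in blue). Dot area grows with the score, grey marks the gene body, stars mark regions gained by W2 and kept, and triangles mark regions over the start site of another protein-coding gene. The stars at Lgr5 and Lgr6 all fall inside the gene, and the largest dots belong to the start of Lrig1 in culture.

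Lgr5 (ENSMUSG00000020140.15, chr10:115450311-115587780, minus strand) was the least accessible of the loci before SOX9 and had a peak over its start only late. No list up to W2 had a start-site peak, and the score was 5.73 at W6 and 7.73 at W12. The −log10 q of 12.5 at W6 was under the lowest value kept at D0, and that of 28.8 at W12 was above it. In bulk lists, an opening in few cells and a weak opening in each cell cannot be told apart. In culture the start was already open without DOX, at 9.77, and stood at 16.3 with WT-SOX9, 13.1 with ΔHMG-SOX9, 9.92 with ΔTA-SOX9, 4.86 with AFOS and 3.96 with SOX9+AFOS. The SOX9+ARID1a list had a peak of 5.39 in the same region, but it did not cover either annotated start. Even the W12 score ranked low, at the 13.7th percentile of the start-site peaks of its list. Absence at D0, W1 and W2 with presence at W6 and W12 was shared by Lgr5 and Cd34, 2 of the 5 markers, and by 0.49% of 21853 protein-coding genes with annotated start sites. Of the late peaks of these markers, that of Lgr5 at W12 alone was above the lowest −log10 q kept at D0. At that minimum neither marker had the pattern, and the share over all genes was not counted.

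At Lgr5, 3 intronic regions were gained by W2 and kept (kept gains), that is absent from the first 2 in vivo lists and listed in the last 3. They lay in intron 8 at 118.6 kb from the gene start (chr10:115468915-115469494, scores 5.36 at W2, 4.96 at W6 and 9.71 at W12), in intron 1 at 59 kb (chr10:115528308-115529320, 3.54, 9.58 and 7.48) and in intron 1 at 37.5 kb (chr10:115549991-115550653, 3.54, 6.46 and 7.41). The nearest protein-coding start was that of Zfc3h1 for the first and of A930009A15Rik for the other 2. Counted by nearest start, Lgr5 had 0 kept gains. All 3 had a −log10 q at W2 (8.93, 5.26 and 5.26) below the lowest value kept at D0, so such peaks would not have been listed at D0. The first of them has the AP1 letters printed above. The other two differed in culture, where the region at 59 kb was never called and the region at 37.5 kb was the highest of the locus, at 24.6 without DOX, 4.13 with ΔHMG-SOX9, 7.47 with ΔTA-SOX9 and 25.3 with SOX9+ARID1a. That region was absent with WT-SOX9, AFOS and SOX9+AFOS. The widest in vivo range belonged to the only region present in all 5 in vivo lists, 151.4 kb from the start and beyond the 3′ end (chr10:115436135-115436725), with 6.43, 4.3, 9.34, 10.8 and 15.3 from D0 to W12. A region next to it (chr10:115437263-115438045), at 3.05 at D0 and 5.55 at W1, had no peak from W2 on, here called an early loss.

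Across the whole window, Lgr5 had 3 peaks at D0 (summed score 14.7, mean 4.89, 1114 bp covered), 2 at W1 (9.85) and 5 at W2 (24.9). The W6 list had 8 (56.1, mean 7.01, 3906 bp) and the W12 list 11 (72.1, mean 6.55, 5894 bp). The log2 ratio of the sums was 1.93 for W6 over D0, where the middle of all windows, from the 10th to the 90th percentile, lay between −0.55 and 0.76, and it was 0.31 when the flanks were widened to 100 kb. With only peaks of −log10 q of at least 14.5, the D0 sum was 14.7 and the W6 sum 27.4 (3 peaks, mean 9.14, 1767 bp), a log2 ratio of 0.90, while the ratios were −0.65 for W2 and 2.07 for W12. In culture the sum was lower with WT-SOX9, at 78.2 without DOX (7 peaks, mean 11.2, 3982 bp) and 36.0 with WT-SOX9 (3 peaks, mean 12, 2474 bp), a log2 ratio of −1.12. WT-SOX9 closed 6 of the 7 noDOX regions of Lgr5, leaving the start, while ΔHMG-SOX9 and ΔTA-SOX9 closed 1 each. Among all noDOX regions these arms closed 27.9%, 18.5% and 19.2%, in that order. Counted by nearest protein-coding start and not by window, WT-SOX9 closed 2 regions at Lgr5. A lower sum was not limited to arms with SOX9. AFOS alone had 40.3 (6 peaks, mean 6.71, 3382 bp), a log2 ratio of −0.96, and closed 3 of the 7 noDOX regions, against 17.3% of all. The sum was 56.2 with ΔHMG-SOX9, 67.0 with ΔTA-SOX9, 17.3 with SOX9+AFOS and 72.4 with SOX9+ARID1a. The culture ratios also depended on the window, since with flanks of 100 kb they became 0.0019 for WT-SOX9 and −0.61 for SOX9+AFOS, against −2.18 in the window used.

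Lgr6 (ENSMUSG00000042793.13, chr1:134983301-135105276, minus strand), the related R-spondin receptor, had the opposite starting point, with a start open in skin at every time and, in culture, in 1 list only. Its start-site score was 19.0 at D0, then 17.8, 12.4, 9.42 and 9.72 in the W1, W2, W6 and W12 lists, so both late values were below all 3 earlier ones. In culture a start-site peak was listed with WT-SOX9 alone, at 3.42. A start open in all 5 in vivo lists and not called in noDOX was found for 1 of the 5 markers, Lgr6, and for 2.92% of protein-coding genes. Inside and upstream of the gene, 4 further regions were present in all 5 in vivo lists and in none of the 7 culture lists, a pattern of 4.41% of all regions. They lay 72.4, 27.6 and 19 kb into the gene and 22.9 kb before it, with scores between 3.16 and 14.3.

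Of 28 in vivo regions at Lgr6, 5 (17.9%, against 7.99% of all in vivo regions) were gained by W2 and kept, and all 5 were intronic. The share was 23.1% at Lgr5, 21.1% at Plet1, 16.7% (1 of 6) at Cd34 and 4% (1 of 25) at Lrig1. The strongest lay in intron 4 at 47.1 kb (chr1:135057873-135058570), with 14.2 at W2, 21.9 at W6 and 8.62 at W12 and a −log10 q of 26.9 at W2. It was also absent without DOX and opened by WT-SOX9 (13.4), SOX9+AFOS (3.78) and SOX9+ARID1a (8.2), and not called with ΔHMG-SOX9, ΔTA-SOX9 or AFOS. Its sequence above holds the letters of SOX and of RUNX. The other 4 lay in intron 4 at 65.9 kb (chr1:135038900-135039911, 5.65, 7.28 and 4.7) and in intron 6, at 85.1 kb (chr1:135019730-135020655, 5.17, 4.89 and 3.52), 86.2 kb (chr1:135018766-135019460, 9.56, 7.86 and 4.08) and 91.4 kb (chr1:135013596-135014083, 6.35, 6.63 and 5.08). These 4 were not called in any culture list. The pair at 85.1 and 86.2 kb lay 2413 and 1334 bp from a second annotated start of Lgr6, which had no peak itself. At a −log10 q of at least 14.5 in all lists, 1 of the 5 remained in the class. A region in intron 4 at 68.7 kb (chr1:135035909-135037162, 3.05 at D0 and 7.76 at W1) and another 9.3 kb upstream (chr1:135114283-135114814, 3.79 and 3.12) were early losses.

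The highest score of the Lgr6 window, 66.5 at W1, and its widest ranges belonged to the start of Ube2t, a neighbouring gene, and 4 regions in all lay over starts of other genes. Without those 4 regions, the highest scores of the regions summed to 80.2 at D0, 124, 129 and 120 in the next 3 lists, and 83 at W12. The higher sums at W2 and W6 were not seen with only peaks of −log10 q of at least 14.5, where the log2 ratios to D0, over all regions of the window, were −0.43 and −0.07. In culture they summed to 17.9 without DOX, 58.9 with WT-SOX9, 19.4 with ΔHMG-SOX9, 22.1 with ΔTA-SOX9, 20.4 with AFOS, 36.8 with SOX9+AFOS and 45.8 with SOX9+ARID1a. The 3 arms with full-length SOX9 were thus the highest, and every culture value was below every in vivo value. The log2 ratio of WT-SOX9 over noDOX was 0.58 with all regions of the window and 1.72 without the 4. WT-SOX9 opened 8 of the 13 culture regions absent without DOX, where the share over all such regions was 31.4%.

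**Figure D2:**
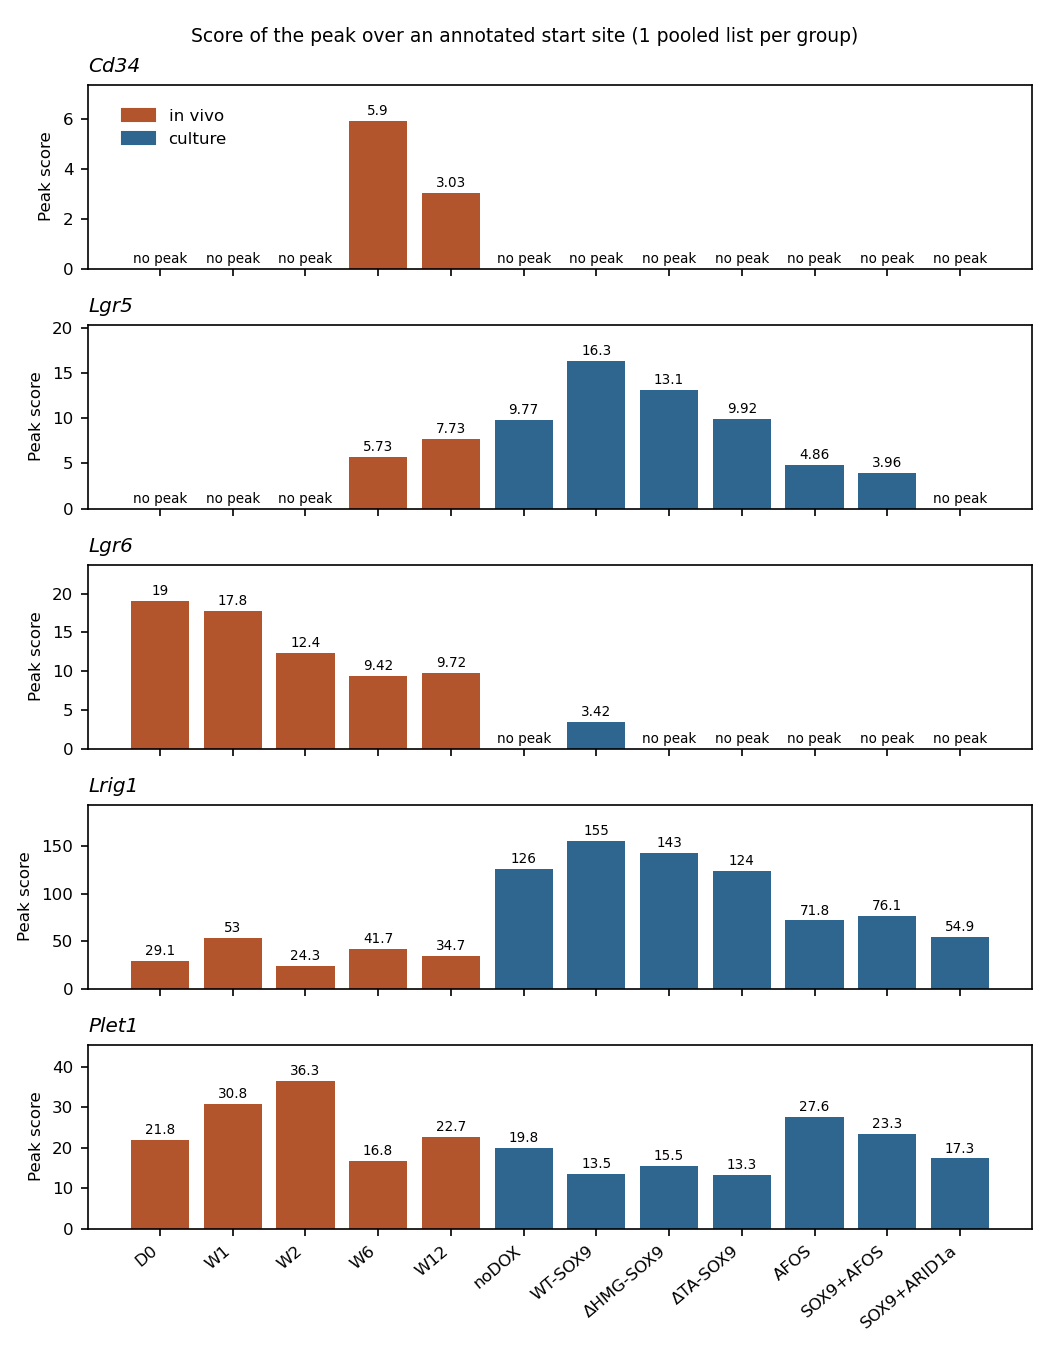
Score of the peak over an annotated start site of each marker (y axis, authors' normalized score) in each of 12 lists (x axis, in vivo in brown and culture in blue), each bar being 1 pooled list. Cd34 and Lgr5 have a bar in vivo only at W6 and W12, Lgr6 goes from 19.0 to 9.72 in vivo and has 1 small bar in culture, and Lrig1 is higher in all culture lists than in any in vivo list.

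Lrig1 (ENSMUSG00000030029.14, chr6:94604529-94700158, minus strand) was open at its start in all 12 lists. The score was 29.1 at D0 and 53.0 at W1, then 24.3, 41.7 and 34.7 in the W2, W6 and W12 lists, with no steady direction. In culture it was 126 without DOX, 155 with WT-SOX9, 143 with ΔHMG-SOX9 and 124 with ΔTA-SOX9, and 71.8 with AFOS, 76.1 with SOX9+AFOS and 54.9 with SOX9+ARID1a. The start region was the highest of the window and had its widest range in both settings, and the noDOX score stood at the 99.5th percentile of start-site peaks. The 3 lower culture values came from the arms whose peak names record fragments as input, whose part in the difference was not tested.

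A region over intron 4 and exon 5 of Lrig1 at 71.8 kb (chr6:94627975-94628687) was the only one there gained by W2 and kept, with 24.7 at W2, 22.4 at W6 and 23.1 at W12. Its −log10 q of 48.3 at W2 was above the lowest value kept at D0. In culture it was open without SOX9, at 27.8 in noDOX and 11.2 to 21.7 in 5 of the arms, and it was not called with SOX9+AFOS. The 3 regions lost early, present at D0 and gone from W2 on, were in intron 2 (chr6:94661246-94661703, 4.41 at D0 and 5.49 at W1), in intron 1 (chr6:94676450-94676911, 8.4 and 6.09) and 29.9 kb upstream (chr6:94729773-94730333, 8.72 at D0 only). None of the 3 was called in culture. Of 15 noDOX regions, SOX9+AFOS closed 11, while WT-SOX9 closed 3 and AFOS 1, against 34.9%, 27.9% and 17.3% of all noDOX regions, so the latter 2 counts were below the shares over all regions. The 4 regions still called with SOX9+AFOS were the start, at 76.1, and regions 64.8, 53.7 and 24.6 kb into the gene, at 5.98, 11.9 and 3.68. The summed score of the window was accordingly 97.6 with SOX9+AFOS (4 peaks, mean 24.4, 2826 bp) against 331 without DOX (15 peaks, mean 22.0, 10361 bp), a log2 ratio of −1.76. SOX9+ARID1a had 198 and the other arms 315 to 394. In vivo the sums stayed between 213 and 267.

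Plet1 (ENSMUSG00000032068.14, chr9:50494525-50505482, plus strand) was also open at its start in all lists. In the skin lists the score was 21.8 at D0 and 30.8 at W1, was 36.3 at W2, and then 16.8 and 22.7 in the W6 and W12 lists. The culture scores were 19.8 in noDOX, 13.5 with WT-SOX9, 15.5 with ΔHMG-SOX9, 13.3 with ΔTA-SOX9, 27.6 with AFOS, 23.3 with SOX9+AFOS and 17.3 with SOX9+ARID1a. The 2 settings overlapped at the Plet1 start, and in culture both lists with AFOS had the highest scores. Of the 19 in vivo regions of this window 10 were static, present in all 5 lists (37.8% of all in vivo regions were), and 7 of its 22 regions were called in all 12 lists (14.1% of all regions were).

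Downstream of Plet1, 4 in vivo regions were kept gains and 0 were early losses. At a −log10 q of at least 14.5 in all lists, these counts over the window were 1 and 1. Kept gains of Plet1 were also 1 with flanks of 10 kb and 1 when counted by nearest protein-coding start. The region at 26.4 kb (chr9:50520618-50521186, with 3 matches to the RUNX letters) had no peak at D0 and W1 and then 6.23, 17.4 and 24.2, each score above the one before. It was open in every culture list, at 46.6 in noDOX and 22.2 to 56.6 in the arms. The region at 14 kb (chr9:50507190-50509835) went the other way, 15.6 at W2, 6.69 at W6 and 3.88 at W12, and was absent in noDOX but called in all 6 arms, from 3.06 with AFOS to 19.6 with SOX9+AFOS. These borders are those of all lists joined. The in vivo gain lay at chr9:50507312-50507909, so a culture peak in the joined region need not overlap it. The region at 41.6 kb (chr9:50535891-50536329) had 8.19, 6.59 and 3.88. The remaining region (chr9:50537216-50537875), with 11.6, 19.1 and 11.9, lay in Bco2 and was joined, when all lists were merged, to a neighbour present at D0. Upstream, the region 50.3 kb before the gene (chr9:50443708-50444702) had 39.9 at D0 and 30.8 at W1 but 6.80, 9.43 and 8.33 afterwards. The widest in vivo range was over the paired starts of Bco2 and Il18 (chr9:50554580-50555384), at 7.29, 3.41, 22.0, 38.6 and 51.2, and the highest score over the start of Pts, 62.2 at W1. The widest culture range belonged to a region 23.5 kb upstream (chr9:50470307-50471840), 17.4 with WT-SOX9 and 54.9 with ΔTA-SOX9.

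Cd34 (ENSMUSG00000016494.9, chr1:194938819-194961279, plus strand), whose protein the sort had used to discard cells, had the same late start-site peak as Lgr5 in vivo, but none in culture. A start-site peak was listed at W6 (5.9) and W12 (3.03) and in no other list, culture included. Both scores were near the minimum of 3, at the 7.27th and 0.242nd percentile of start-site peaks, and both −log10 q values, 13.0 and 10.2, were under the lowest value kept at D0.

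Scores of the distal elements of Cd34 differed more between lists than those of its start. The region 43.4 kb upstream (chr1:194895125-194895708, printed above with its SOX letters) had no peak in the first 2 in vivo lists, then 32.6 (W2), 26.3 (W6) and 3.39 (W12), and was not called in culture. Its −log10 q was 64.6 at W2 and 64.6 at W6 but 11.6 at W12, so the W12 peak would not have been listed under the minimum of D0. It also had the widest in vivo range of the window. A region 23.9 kb after the start and past the end of the gene (chr1:194962203-194963295), overlapping the antisense gene Gm16897, was present throughout but had 9.26 at D0 and 5.05 at W1 against 32.3, 32.6 and 29.9 later. The highest and, in culture, most variable region lay 37.8 kb after the start (chr1:194976062-194977121), with 40.1 to 57.8 in vivo. In culture it had 58.5 in noDOX, 58.7 with WT-SOX9, 56.8 with ΔHMG-SOX9, 47.5 with ΔTA-SOX9, 27.7 with AFOS, 29.1 with SOX9+AFOS and 13 with SOX9+ARID1a. The last 3 of these arms have peak names that record fragments as input, whose part in the difference was not tested. The region at 37.8 kb was the only Cd34 region called in all 12 lists and the only one left with SOX9+AFOS. The summed score of the window was 64.3 at D0 (2 peaks, mean 32.1, 1948 bp) and 133 at W6 (6 peaks, mean 22.1, 3829 bp), a log2 ratio of 1.05, and it was 80.2 at W12. With flanks of 10 kb that ratio was 2.25.

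**Figure D3:**
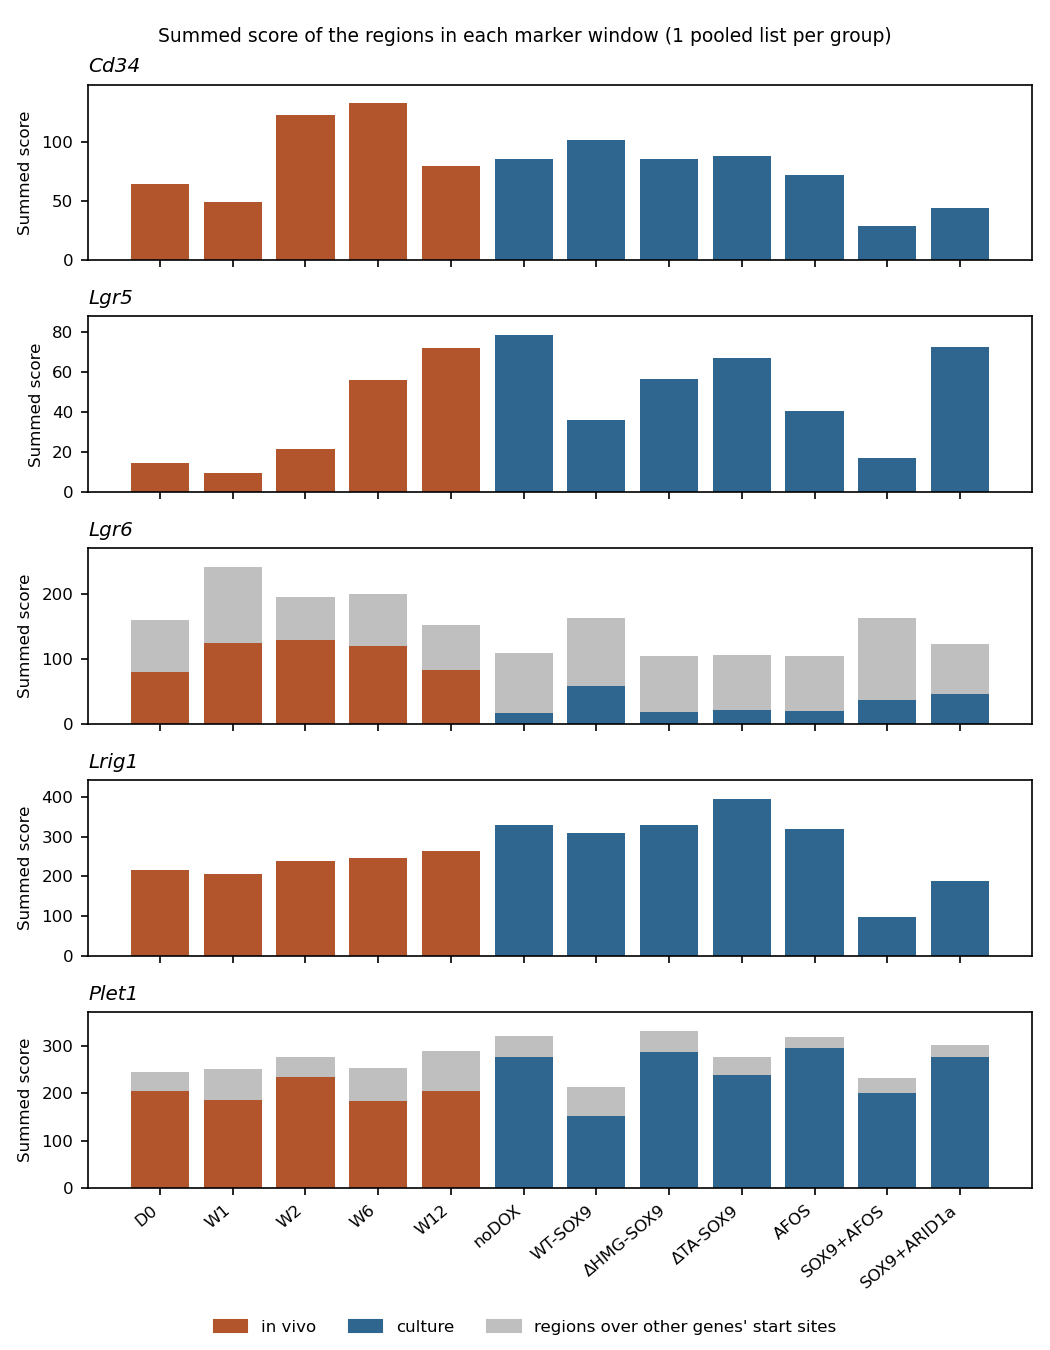
Highest score of each region summed over a marker window (y axis) in each of 12 lists (x axis, in vivo in brown, culture in blue, and grey for regions over start sites of other protein-coding genes), with 1 pooled list per bar. The Lgr5 and Cd34 bars are higher at W6 than at D0, the coloured Lgr6 bars are lower in culture than in vivo, and the Lrig1 bar is lowest with SOX9+AFOS.

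Over all 5 windows, 14 of 91 in vivo regions (15.4%) were kept gains, against 7.99% of all in vivo regions. They numbered 1 at Cd34, 3 at Lgr5, 5 at Lgr6, 1 at Lrig1 and 4 at Plet1, and regions of one window are not replicates. Counted by nearest protein-coding start they numbered 13, with 4 at Cd34, 0 at Lgr5, 5 at Lgr6, 3 at Lrig1 and 1 at Plet1. Without the list labelled W1, kept gains numbered 15, early losses 6 and static regions 34. A further 9 regions (9.89%, against 6.89%) were gained after W2, and 6 (6.59%, against 5.59%) were early losses. Static regions made up 32 (35.2%, against 37.8%), but 10 of 19 at Plet1 and 1 of 13 at Lgr5. The count of kept gains rested on weak peaks. With a score of at least 5 they were 5 of 75 regions (6.67%, against 7.92% of all regions), and with −log10 q of at least 14.5 in all lists they were 3 of 75 (4%, against 3.76%). At both stricter minima the share at the markers was near that of all regions, so the difference of 15.4% from 7.99% is no result about the markers. Early losses at that −log10 q were 12 of 75 (16%, against 14.6%). Of all protein-coding windows, 0.971% held at least as many kept gains as Lgr6, 2.18% as Plet1, 5.21% as Lgr5 and 34.1% as Cd34 or Lrig1, without regard to window length. These ranks rest on the same weak peaks and are no result about the markers either. At the −log10 q minimum of 14.5, Lgr6, Plet1 and Lrig1 held 1 kept gain each and Lgr5 and Cd34 held 0, and no rank was taken.

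In culture, WT-SOX9 opened 15 of the 31 marker regions absent without DOX (48.4%, against 31.4% of such regions overall) and closed 15 of the 47 noDOX regions (31.9%, against 27.9%). Lgr6 held 8 of the 15 opened regions, and Lgr5 held 6 of the 15 closed ones. Counted by nearest protein-coding start, Lgr6 held 6 of 17 opened regions and Lgr5 held 2 of 14 closed ones. Of the 15 opened, 2 (13.3%, against 11.2% of all regions opened by WT-SOX9) were also gained by W2 and kept in vivo, the Lgr6 element at 47.1 kb and the Plet1 element at 14 kb. Both were counted by joined region, within which the culture and in vivo peaks need not overlap. ΔHMG-SOX9 opened 10 (32.3%, against 17.7%) and closed 7 (14.9%, against 18.5%), while ΔTA-SOX9 opened 14 (45.2%, against 32.1%) and closed 6 (12.8%, against 19.2%). AFOS opened 11 (35.5%, against 34.6%) and closed 10 (21.3%, against 17.3%). SOX9+AFOS opened 7 (22.6%, against 31.3%) and closed 23 (48.9%, against 34.9%), the latter including 11 at Lrig1 and 0 at Lgr6. SOX9+ARID1a opened 10 (32.3%, against 28.8%) and closed 10 (21.3%, against 20.5%). All arms were set against the same noDOX list, so their counts share it. That list came from cells of genotype TRE-myc-Sox9. The other constructs had no list without DOX of their own. For them, an effect of the induced construct and a difference between the cells used cannot be told apart.

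**Figure D4:**
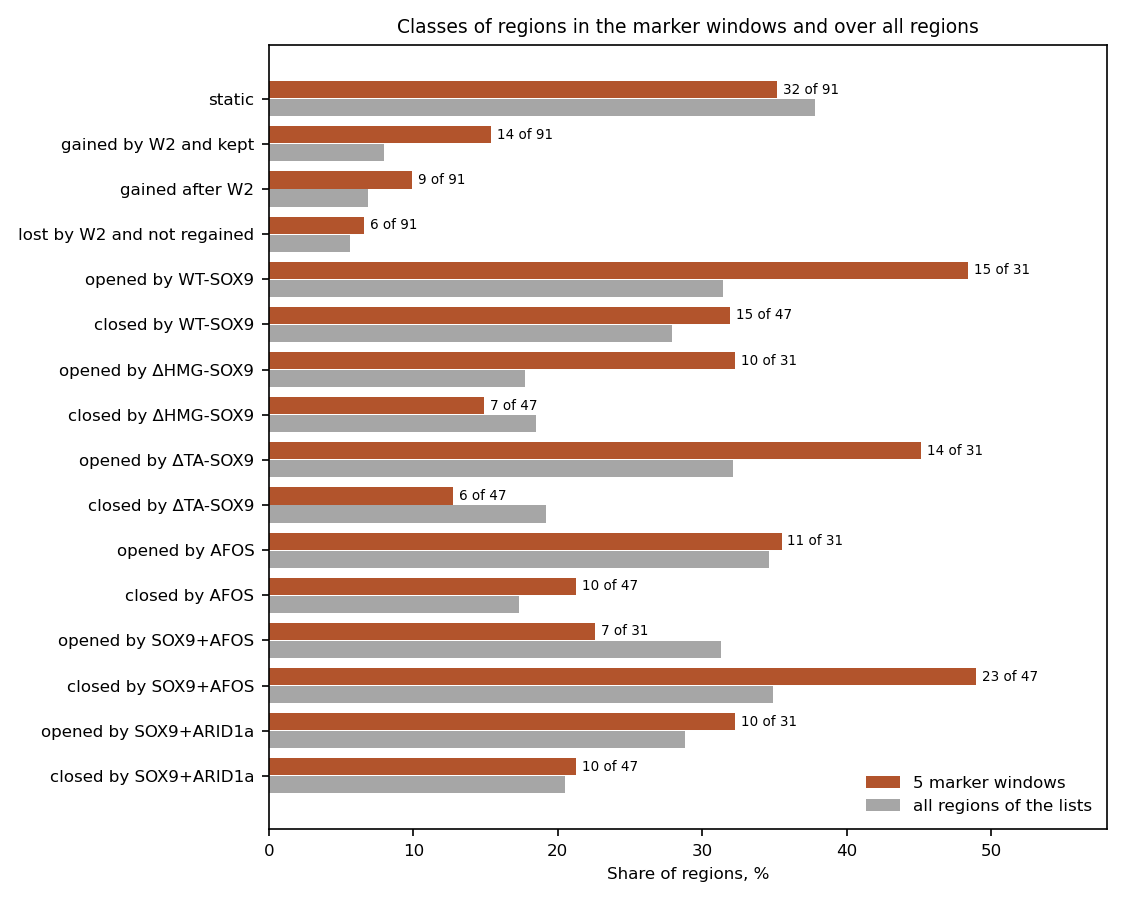
Share of regions in each class (x axis, %) in the 5 marker windows (brown, with counts) and among all regions of the lists (grey), for in vivo classes and for regions opened or closed by each arm relative to noDOX. Among others, the brown bar is longer than the grey one for regions gained by W2 and kept (15.4% and 7.99%), opened by WT-SOX9 (48.4% and 31.4%), by ΔHMG-SOX9 (32.3% and 17.7%) and by ΔTA-SOX9 (45.2% and 32.1%), and closed by SOX9+AFOS (48.9% and 34.9%).

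Comparison of skin and culture showed 36 marker regions called in vivo only, 26 in culture only and 52 in both, that is 31.6%, 22.8% and 45.6%, against 27.9%, 29.1% and 43% of all regions. The windows were unlike each other in this respect, since 17 of 36 regions at Lgr6 but 2 of 22 at Plet1 were called in vivo only. From D0 to noDOX the log2 ratio of the summed score was 2.41 at Lgr5, 0.58 at Lrig1, 0.41 at Cd34, 0.38 at Plet1 and −0.56 at Lgr6, with all windows between −0.99 and 0.99 from the 10th to the 90th percentile. Without regions over starts of other genes, the ratio at Lgr6 was −2.16.

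Genes with related roles were counted in the same way. In the windows of 7 genes of the R-spondin receptor pathway (Lgr4, Rnf43, Znrf3 and Rspo1 to Rspo4), 4 of 90 in vivo regions (4.44%) were kept gains and 4 (4.44%) were early losses, where kept gains were 7.99% and early losses 5.59% of all in vivo regions. Per list, 2 to 4 of the 7 genes had a start-site peak, and 45.0% to 56.6% of all genes had one. In the windows of Lrig2 and Lrig3, relatives of Lrig1, 4 of 38 regions (10.5%) were kept gains and 3 (7.89%) were losses, against the same 7.99% and 5.59%, and both starts were open in all 12 lists. For Cd200, Krt15 and Gli1, other genes used to describe follicle stem cells, 6 of 38 regions (15.8%, against 7.99%) were kept gains and 0 (against 5.59%) were losses. Cd200 held 5 of these 6 gains, Krt15 held 1 and Gli1 held 0. Kept gains were also 3 of 17 regions (17.6%) in the windows of the fibroblast markers, all at Col1a1, and 12 of 121 (9.92%) in those of the basal epithelial markers, so a share above 7.99% was not limited to genes of the follicle. Shares were below 7.99% for the endothelial (0 of 36), melanocyte (0 of 28) and immune markers (2 of 26). So were those for genes of the positive (2 of 42) and negative (1 of 33) sort gates.

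Likeness to each marker was measured by Pearson's r of log2 of the summed window score plus 1 over the 12 lists, which share their list-wide differences, and given without a test. The 3 most alike windows were Picalm, Slc14a1 and Mc2r for Cd34 (0.929, 0.923 and 0.918), Srd5a2, Syn2 and Vezt for Lgr5 (0.953, 0.953 and 0.951) and Thrsp, Nfib and Dpep1 for Lgr6 (0.951, 0.941 and 0.94). For Plet1 they were Sprr3, Fbxo28 and Lrrfip1 (0.957, 0.938 and 0.929), and for Lrig1 the first were Fam163b and Klrb1 (0.962 and 0.958).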

How the data were processed

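ATAC-seq peak lists of 12 groups (24 samples) were analysed. Per the submitters' notes and methods, the authors aligned reads with Bowtie2 2.2.9 to GRCm38, merged both replicates of a group and called peaks with MACS2 2.1.1. The deposited score is a normalized peak score of at least 3, whose common scaling is inferred from the list totals, and the in vivo files also hold the authors' fold enrichment and −log10 q-value. Peak names record fragments as input for AFOS, SOX9+AFOS and SOX9+ARID1a.

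Here, peaks sharing at least 1 bp were joined into regions with Python 3.11.15, pandas 2.3.3, numpy 2.4.6 and pysam 0.24.0, and figures were drawn with matplotlib 3.10.9. Genes came from GENCODE M21 and sequence from RefSeq GRCm38.p6, the build of the files. A list had a region when it had a peak in it, and its score was the highest of those peaks. Regions were static (in all 5 in vivo lists), kept gains (in the last 3 of them and neither of the others), gained after W2 (in the last 2 alone) or early losses (called at D0, with no peak from W2 on). Opened and closed were relative to noDOX. The class rules were tested on simulated data and recovered 2000 of 2000 regions. The simulated regions stood apart from each other, so this could not show an effect of joining neighbours. In the data, the class of 3 marker regions differed between joining all lists and joining the in vivo lists. In each window the text names the start-site region, the highest, those with the widest ranges and every kept gain or loss. The 3 most alike genes were sought among those with a peak in at least 6 lists, and 1 of those found is not reported here. Members and lists were chosen with earlier results of these data known. With 1 pooled list per group no test was made.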

Additional observations from a re-analysis of the deposited data

How the results depend on the processing

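Counts were repeated under other settings. With a score of at least 5, static regions numbered 21 and kept gains 5. With lists cut to equal size, kept gains were 7 and losses 11. With flanks of 10 kb, in vivo regions were 57, static 14, culture regions 40, and regions opened and closed by WT-SOX9 8 and 8. With flanks of 100 kb, in vivo regions were 138 and static 49. At a common −log10 q of at least 14.5, static regions were 19, kept gains 3 and losses 12. The cause was not tested, except that these settings change how many peaks or bases are counted. The other 45 of these repeats stayed within 1.5 times the count reported. Among values for single windows and motifs, 176 stayed within their limit and 74 moved. For log2 ratios under settings chosen later, the limit was a difference of 0.25 without regard to sign. The W6 over D0 ratio at Plet1, 0.02 in the main setting, thus counted as within it at −0.15 and −0.14. The W2 over D0 ratio at Lrig1, 0.10 in the main setting, did so at −0.03. Leaving out the list labelled W1 or the W12 list, chosen after the data were seen, gave 34 or 32 static regions, 15 or 14 kept gains and 6 or 8 losses. Leaving out regions over other genes' starts, and summing only peaks over the common −log10 q, were also chosen after the data were seen. No paired analysis was possible because replicates were merged before peaks were called. Depth was unknown, so a region not called may be closed or under the threshold.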
